A study of Rattus norvegicus with 16 samples.

Results

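Gene expression in the rat retina at circadian time 12 (CT12) was compared with that at circadian time 6 (CT6). The comparison holds 6 of the 16 arrays of the series, 3 titled CT12 and 3 titled CT6, chosen by the tissue and hour in their titles. Both groups are whole retina of Rattus norvegicus, and the labels name no strain, age, sex, genotype, drug or lighting for either. By convention CT counts hours of the internal clock in constant conditions and Zeitgeber time (ZT) counts hours from lights on. The 6 retina arrays at ZT6 and ZT12, 3 each, entered the same fit and served for comparison, and the 4 pineal arrays were not used. Nothing in the labels says that the numbered arrays of a group come from separate animals, so the p-values measure only the spread between these samples, which may be technical. Per the source labels the retina arrays numbered 3 are "brain, retina" and all other retina arrays are "eye, retina". CT12 array 1 was known beforehand to be rich in lens and poor in rod transcripts, so the main results are given with all 6 arrays and without that array, and other values name the arrays they rest on.

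The retina keeps its own circadian clock, a loop of transcription factors (Bmal1 and Clock, the Per and Cry repressors, the Rev-erb and Ror receptors) that times other genes such as Dbp. CT6 is the middle of the subjective day and CT12 the start of the subjective night, when the retina turns from dopamine, its day signal, towards melatonin, its night signal. Immediate early genes such as Egr1, Fos and Nr4a1 are transcribed within minutes of a change in light, dopamine or neuronal activity, often through cyclic AMP and the response element CRE that the factor CREB binds.

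Each array carries 8740 probe sets besides 59 controls, of which 7006 have 1 gene symbol, for 4736 genes. Levels are log2 of the deposited intensity plus 16 after quantile normalization of the retina arrays, and a difference of 1 is a 2-fold change. The dimmest 40% of probe sets were left out, and the 5244 kept covered 3173 genes with all arrays and 3164 without CT12 array 1. The CT6 arrays carried markers of photoreceptors, which CT12 array 1 held at lower levels. On the CT6 arrays the level of the photoreceptor arrestin Sag was 17.43, 17.53 and 17.57, and that of the green cone opsin Opn1mw was 12.49, 12.66 and 12.70 on its brighter probe set.

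CT12 array 1 differed most from the rest of the 12. Its median rank correlation with the other retina arrays was 0.837, against 0.944 to 0.962 for the rest, and 68.0% of its probe sets lay outside the range of the other 11 arrays, against 5.97% to 23.3% for the rest. The mean level of 13 rod phototransduction genes was 10.92 on it and 13.49 to 14.23 on the others, and that of 7 lens fibre genes was 15.36 on it and 9.33 to 14.59 on the others. The median standard deviation within a group was 0.413 log2 units at CT12 and 0.203 between CT12 arrays 2 and 3, against 0.201 at CT6. CT6 array 3 differed the other way in lens transcripts, with a mean crystallin level of 11.99 against 15.99 and 16.42 on CT6 arrays 1 and 2. The mean lens fibre level of CT12 arrays 2 and 3 was above that of all CT6 arrays.

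**Figure D1:**
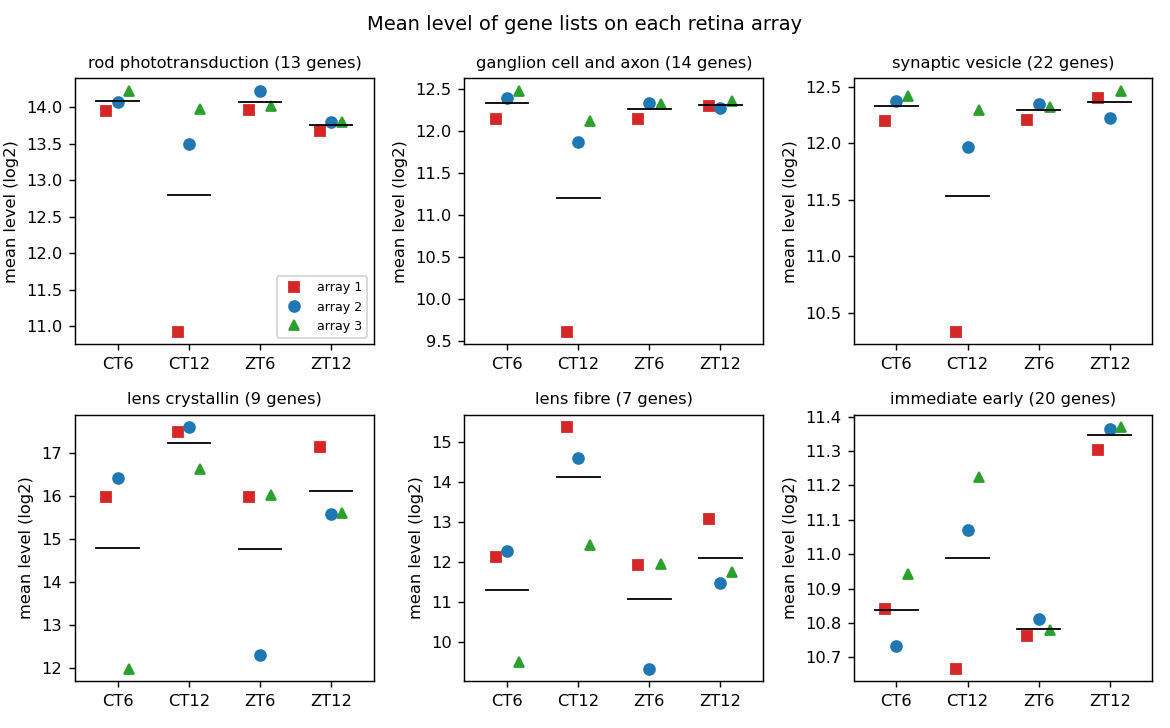
Mean level (log2 of intensity plus 16) of 6 gene lists on each of the 12 retina arrays, by group. Each point is an array, numbered as in its title, and the line is the group mean of 3. CT12 array 1 is the lowest of all in the rod (10.92), ganglion cell (9.61) and synaptic vesicle (10.33) lists and the highest in the lens fibre list (15.36).

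With all 6 arrays, 2 genes passed the threshold (adjusted p below 0.05, limma with Benjamini-Hochberg adjustment), and both fell from CT6 to CT12. They were Cpt1a, the outer membrane carnitine palmitoyltransferase that controls the entry of long-chain fatty acids into mitochondria for oxidation, and Nptx2, a secreted pentraxin induced by neuronal activity that clusters AMPA receptors at synapses. They are 0.0381% of the 5244 probe sets tested. At an unadjusted p below 0.05 there were 1438 probe sets, or 27.4%. Without CT12 array 1, the threshold was met by 7 probe sets (0.133%), and 1002 (19.1%) were below 0.05 unadjusted. Cpt1a and Nptx2 passed again and fell, as did Opn1mw, Fdft1 and Syngr1, so 5 were lower (0.0953%). The 2 that were higher (0.0381%) were the orphan nuclear receptor Nr4a1 and a probe set with no gene name in the annotation (difference 2.60). The unnamed probe set read 9.97, 10.02 and 8.75 at CT6 and 9.61, 11.89 and 12.47 at CT12. At ZT it read 8.98, 9.17 and 9.28 at hour 6 and 13.64, 14.08 and 14.09 at hour 12. Its gene was not identified here, so it is counted in no gene list.

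The promoters of Cpt1a, Nptx2 and Nr4a1 are shown because the first pair fell in both fits and Nr4a1 was the named gene that passed as higher. Each run is the 250 bases before the transcription start, 5′ to 3′ along the gene, from RefSeq on build GRCr8. Capitals mark each short CRE, TGACG, on either strand, so that CGTCA is the same motif on the other strand.
Cpt1a, chr1:209995910-209996159, plus strand: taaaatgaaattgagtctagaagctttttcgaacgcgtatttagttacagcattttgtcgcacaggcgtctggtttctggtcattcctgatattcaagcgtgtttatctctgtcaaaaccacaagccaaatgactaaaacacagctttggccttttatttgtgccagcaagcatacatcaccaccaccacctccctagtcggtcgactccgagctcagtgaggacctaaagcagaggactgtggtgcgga
Nptx2, chr12:15162046-15162295, minus strand: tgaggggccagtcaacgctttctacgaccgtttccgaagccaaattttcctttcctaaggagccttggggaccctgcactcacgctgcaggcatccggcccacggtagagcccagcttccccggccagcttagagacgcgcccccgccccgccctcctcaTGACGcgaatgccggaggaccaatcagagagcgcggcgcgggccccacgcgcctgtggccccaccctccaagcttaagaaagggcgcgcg
Nr4a1, chr7:134259888-134260137, plus strand: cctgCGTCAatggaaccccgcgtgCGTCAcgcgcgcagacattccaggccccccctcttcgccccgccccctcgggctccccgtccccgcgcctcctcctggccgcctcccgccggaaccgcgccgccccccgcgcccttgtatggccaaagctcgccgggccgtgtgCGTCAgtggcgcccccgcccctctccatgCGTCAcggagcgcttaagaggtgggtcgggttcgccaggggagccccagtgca

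The Nr4a1 window held 4 short CRE matches, which begin 246, 226, 82 and 53 bases before the start. The Nptx2 window held 1, at 90 bases, and the Cpt1a window 0. Of 33469 rat promoters in the table, 18.2% hold at least 1 short CRE in the same window. The SP1 motif GGGCGG matched 3 times for Nr4a1, 2 times for Nptx2 and 0 times for Cpt1a, and 30.5% of promoters hold it. The EGR motif GCGGGGGCG matched 1 time for Nr4a1 and 1 time for Nptx2, against 2.45% of promoters, and it can overlap SP1. The full CRE TGACGTCA (1.59% of promoters), the E-box CACGTG of clock factors (5.59%) and the AP-1 motif TGACTCA (4.05%) matched in none of the 3 windows. These are matches of letters only.

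Cpt1a fell by a similar amount with and without CT12 array 1. Its level was 13.03, 12.98 and 13.40 on the CT6 arrays and 11.47, 11.90 and 11.93 on the CT12 arrays. Every CT12 array lay below every CT6 array. The difference was -1.37 ± 0.17 (SE, n = 3 and 3, limma adjusted p = 0.0233), a 2.59-fold lower level, and -1.21 ± 0.15 without CT12 array 1 (n = 3 and 2, adjusted p = 0.0285), or 2.31-fold. At ZT it was lower at hour 12 as well, with levels of 13.50, 13.63 and 13.53 at ZT6 and 12.91, 12.81 and 12.67 at ZT12 (difference -0.74, adjusted p = 0.0286 in the fit without CT12 array 1). The CT fall exceeded the ZT fall by 0.46 ± 0.20, which did not pass (adjusted p = 0.272). The call rests on few arrays: with all 6, the adjusted p was 0.0626, 0.0832 and 0.0883 without CT6 array 1, 2 or 3, and without CT12 array 1 it was 0.0616 when CT6 array 2 was left out too.

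Nptx2 passed on 1 of its 2 probe sets. On that probe set, which by its suffix was designed under relaxed rules, the level was 11.79, 11.74 and 11.39 at CT6 and 9.70, 9.33 and 8.96 at CT12. Every CT12 array lay below every CT6 array. The difference was -2.31 ± 0.27 (limma adjusted p = 0.0233) with all arrays, 4.97-fold, and -2.51 ± 0.27 (adjusted p = 0.0175) without CT12 array 1, 5.70-fold. The other probe set read 11.70, 12.07 and 12.11 at CT6 and 9.12, 11.45 and 11.61 at CT12, and its difference of -1.24 with all arrays and -0.43 without CT12 array 1 did not pass (adjusted p = 0.166 and 0.195). So both probe sets were lower on every CT12 array, by very different amounts. Without CT6 array 1 or 2 the relaxed probe set had an adjusted p of 0.0626 and 0.0832, and without CT6 array 2 and CT12 array 1 it had 0.0616.

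The hour worked in opposite directions on this probe set at CT and at ZT. Its level was 9.60, 9.75 and 10.33 at ZT6 and 11.38, 11.96 and 11.24 at ZT12, so it rose by 1.64 ± 0.24 there (limma adjusted p = 0.0130 in the fit without CT12 array 1). CT6 and ZT12 arrays were high, and CT12 and ZT6 arrays were low. The difference between the 2 hour effects was the only one of the array to pass, with all arrays (1 of 5244 probe sets, 0.0191%) and without CT12 array 1 (also 0.0191%). It was -3.95 ± 0.38 (adjusted p = 0.00397) and -4.15 ± 0.36 (adjusted p = 0.00261). It passed with each of the 12 arrays left out in turn, with adjusted p up to 0.0274.

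**Figure D2:**
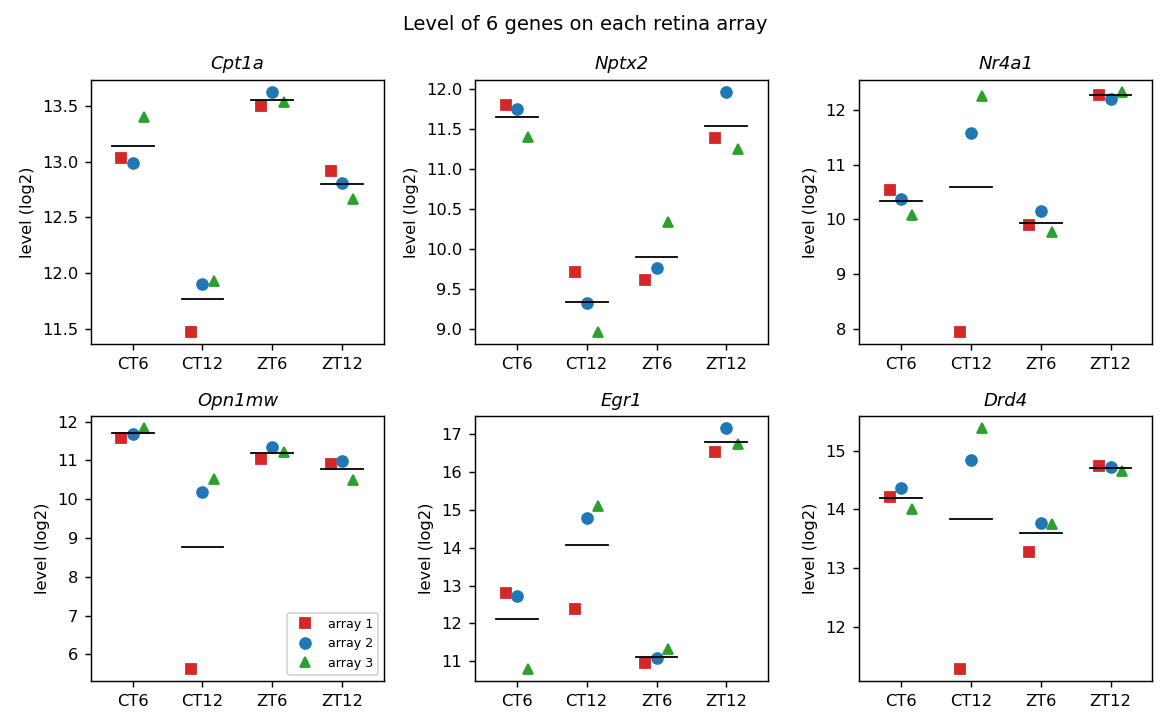
Level (log2 of intensity plus 16) of 6 genes on each retina array, 1 probe set a gene, with group means of 3 as lines; the vertical axes differ and do not start at 0. Cpt1a is low on all 3 CT12 arrays, Nptx2 is low at CT12 and ZT6, and for Nr4a1, Egr1 and Drd4 CT12 array 1 (7.93, 12.38 and 11.28) lies far below CT12 arrays 2 and 3.

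Nr4a1, which encodes the orphan receptor Nur77, passed in the fit without CT12 array 1 and not in the fit with it. Its level was 10.53, 10.38 and 10.08 at CT6, and 7.93, 11.58 and 12.26 at CT12. CT12 array 1 lay below all CT6 arrays and the other CT12 arrays lay above them. The difference was 0.26 ± 0.84 with all arrays (limma adjusted p = 0.839) and 1.59 ± 0.21 without CT12 array 1 (adjusted p = 0.0285), 3.02-fold. Its second probe set read 10.22, 10.24 and 10.53 against 10.18, 10.99 and 11.25, a difference of 0.79 without CT12 array 1 (adjusted p = 0.0797). The call was lost when CT6 array 2 or CT6 array 3 was left out as well (adjusted p = 0.0837 and 0.0874). At ZT it read 9.90, 10.15 and 9.77 at hour 6 and 12.28, 12.20 and 12.33 at hour 12.

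The remaining 3 falls without CT12 array 1 each rest on 1 probe set of several. Opn1mw, the opsin of green-sensitive cones, read 11.57, 11.69 and 11.83 at CT6 and 5.62, 10.20 and 10.51 at CT12. Its difference without CT12 array 1 was -1.34 ± 0.18 (limma adjusted p = 0.0285), and its second, brighter probe set gave -0.62 (adjusted p = 0.177). Fdft1, the squalene synthase of cholesterol synthesis, read 9.80, 9.79 and 10.03 at CT6 and 9.50, 8.69 and 8.81 at CT12, a difference of -1.13 ± 0.16 (adjusted p = 0.0288). Its other 3 probe sets gave -0.79, -0.56 and 0.05, and none passed. Syngr1, a synaptic vesicle membrane protein, read 10.18, 10.47 and 10.45 at CT6 and 9.29, 8.98 and 9.21 at CT12, a difference of -1.28 ± 0.19 (adjusted p = 0.0459). Its other 2 probe sets gave 0.07 and 0.05, so they did not share the fall. All 3 genes missed the threshold when CT6 array 2, CT6 array 3 or CT12 array 2 was also left out, with adjusted p between 0.0827 and 0.119. With all 6 arrays their adjusted p was 0.137, 0.113 and 0.0508.

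The count of genes past the threshold depended strongly on which arrays were used. Without the arrays numbered 3 of all groups, whose source label differs, the differences of Cpt1a and Nptx2 were -1.34 and -2.25 with CT12 array 1 and -1.11 and -2.45 without it, and none passed (limma adjusted p = 0.135, 0.0785, 0.127 and 0.0719). Without the filter on dim probe sets neither passed (adjusted p = 0.0649 and 0.0501 with all arrays), nor when the CT arrays were fitted alone (0.395 for both). With CT12 array 3 left out, so that CT12 arrays 1 and 2 stood for the group, 1306 probe sets passed, 474 higher and 832 lower. Without CT12 array 2 it was 5, and without CT6 array 1, 2 or 3 it was 1, 0 and 2. Where 0 passed, 911 had an unadjusted p below 0.05. In the data without CT12 array 1, leaving out CT6 array 1, 2 or 3 gave 34, 0 (745 unadjusted) and 5, and leaving out CT12 array 2 or 3 gave 22 and 89. In these last fits the lone CT12 array is assumed to vary like the other groups. CT12 array 2 is itself rich in lens transcripts, with a mean lens fibre level of 14.59 against 12.41 on CT12 array 3.

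The fits with and without CT12 array 1 were compared over the probe sets with small p. Of the 1438 probe sets with an unadjusted p below 0.05 with all arrays, 827 also had it without CT12 array 1 and in the same direction. They are 57.5% of the former and 82.5% of the 1002 found without it. None of the 1424 that were in both fits changed sign, and 297 shrank to at most 50% of their size. Outside that set, Rorb and Drd4 changed sign. Arrays of the groups did not overlap for 10.6% of probe sets with CT12 higher and 15.9% with CT12 lower, and for 12.9% and 19.9% without CT12 array 1.

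**Figure D3:**
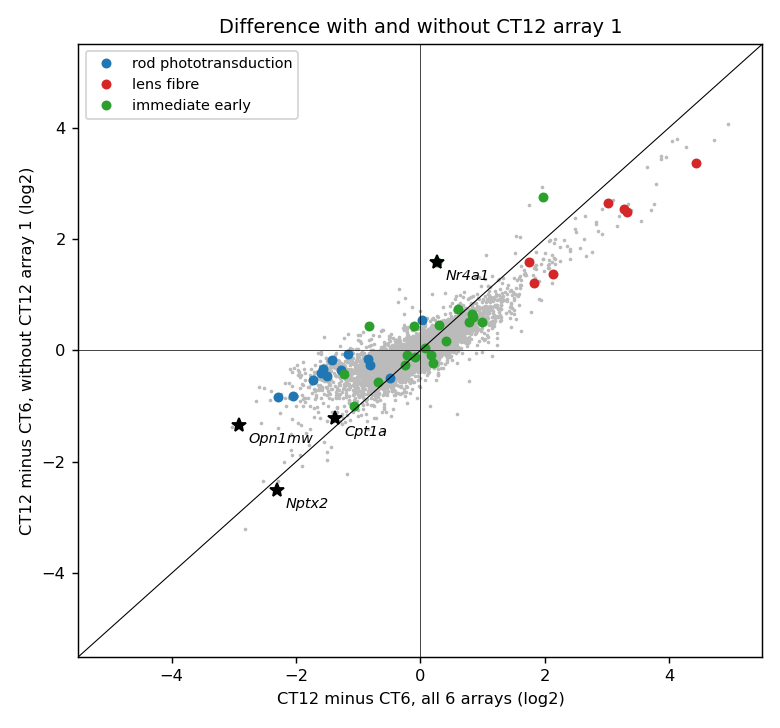
Difference CT12 minus CT6 (log2) with all 6 arrays on the horizontal axis and without CT12 array 1 on the vertical axis, 1 grey point per probe set, the diagonal marking equal values. The medians of the rod genes (blue) and of the lens fibre genes (red) move towards 0 without the array, though not every rod gene does. Cpt1a and Nptx2 stay near the diagonal, and Nr4a1 goes from 0.26 to 1.59.

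Immediate early genes were mixed. Of 38 listed, 29 are on the array and 20 passed the filter, counted on the brightest probe set of each gene. With all arrays 0 of the 20 passed the test, with 5 higher and 2 lower at an unadjusted p below 0.05. The background over 3173 genes was 12.3% higher and 15.1% lower. Without CT12 array 1, Nr4a1 passed, with 5 higher and 1 lower at the unadjusted level against a background of 7.36% and 11.9% over 3164 genes. The median difference of the list was 0.19 and 0.30, against -0.05 and -0.04 for all genes. In 9 of the 20 the CT12 arrays 2 and 3 both lay above all CT6 arrays, and in 1 both lay below, against 12.9% and 19.9% of all probe sets. Nptx2 is also in this list, counted on its brighter probe set, which did not pass. Its relaxed probe set fell past the threshold in both fits (-2.31 and -2.51).

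Egr1, a zinc finger factor of the family that binds the EGR motif above, had the largest rise of that list, counted on brightest probe sets. On its brightest probe set the level was 12.80, 12.74 and 10.80 at CT6 and 12.38, 14.78 and 15.09 at CT12. CT6 array 3 was 2 units below the other CT6 arrays, and CT12 array 1 lay inside the CT6 range. Without CT12 array 1 its 4 annotated probe sets gave 2.75, 2.93, 2.05 and 0.78 (limma adjusted p from 0.0797 to 0.166), so none passed. On the unnamed probe set that passed, too, CT6 array 3 was lowest and CT12 array 1 lay inside the CT6 range. Whether that probe set measures Egr1 was not tested. Fos, the AP-1 subunit, read 11.38, 11.26 and 11.54 at CT6 and 11.74, 12.00 and 12.27 at CT12 on its brightest probe set, with all CT12 arrays above all CT6 arrays. That difference was 0.61 ± 0.18 with all arrays (adjusted p = 0.126) and 0.74 without CT12 array 1 (adjusted p = 0.0836). Zfp36, which destabilizes AU-rich messages, read 11.22, 10.67 and 10.78 against 12.21, 11.73 and 11.25, and Gadd45a, a DNA damage and stress gene, read 12.12, 12.14 and 11.90 against 13.99, 12.70 and 12.45. Both were highest on CT12 array 1, and neither passed (adjusted p = 0.128 and 0.135). Jun read 10.43, 10.74 and 12.33 against 9.99, 9.84 and 10.49, lower by 1.06 with an adjusted p of 0.163, and CT6 array 3 alone was above 12.

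The core clock list was thinly covered. Of 18 genes 7 are on the array and 6 passed the filter, and 0 of the 6 passed the test in either fit. At an unadjusted p below 0.05, 2 were higher and 1 lower in both fits, against 12.3% and 15.1% of all genes with all arrays and 7.36% and 11.9% without CT12 array 1. Bmal1, the positive factor of the loop, read 12.59, 12.66 and 13.27 at CT6 and 7.48, 11.93 and 12.56 at CT12. All CT12 arrays were below all CT6 arrays, with a difference of -2.18 with all arrays and -0.59 ± 0.24 without CT12 array 1 (limma adjusted p = 0.234). Per2, a repressor of the loop, read 9.51, 9.74 and 9.28 at CT6 and 10.94, 10.13 and 9.68 at CT12, a difference of 0.74 with all arrays and 0.40 without CT12 array 1 (adjusted p = 0.146 and 0.250). Nr1d1, which encodes Rev-erb alpha, read 12.19, 12.18 and 12.08 against 11.19, 11.61 and 12.07, and its groups touched at CT12 array 3 (adjusted p = 0.305 without CT12 array 1). Rorb, a retinal Ror receptor, read 11.88, 11.92 and 11.30 against 8.43, 12.75 and 12.88. Its difference was -0.34 with all arrays and 1.11 ± 0.26 without CT12 array 1, where the adjusted p was 0.0926.

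Clock output genes did not pass either. Of 12 listed, 9 are on the array, and 8 passed the filter with all arrays and 9 without CT12 array 1, where 1 was higher and 1 lower at the unadjusted level (7.36% and 11.9% of all genes). Dbp, the transcription factor that follows Bmal1 most directly, read 13.06, 13.07 and 13.41 at CT6 and 11.62, 12.80 and 13.07 at CT12 (difference -0.68 with all arrays and -0.24 without CT12 array 1, limma adjusted p = 0.182 and 0.411). CT12 array 3 overlapped the CT6 arrays. Bhlhe41, the repressor Dec2, read 13.22, 13.26 and 13.48 against 12.33, 13.01 and 13.02, lower on every CT12 array (-0.53 with all arrays and -0.29 without CT12 array 1, adjusted p = 0.152 and 0.312). Tef, a relative of Dbp, read 11.80, 12.16 and 12.15 against 12.16, 12.33 and 12.44, a difference of 0.35 without CT12 array 1 (adjusted p = 0.278). Wee1, a cell cycle kinase under clock control, read 8.88, 8.70 and 9.01 against 9.02, 9.09 and 9.66 (0.51, adjusted p = 0.223). Cirbp, the cold-inducible RNA-binding protein, read 11.36, 12.01 and 12.59 against 9.53, 11.50 and 11.27, and the groups overlapped without CT12 array 1.

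Genes of melatonin and dopamine signalling did not pass the test. Of 17 listed, 14 are on the array, and 8 passed the filter with all arrays and 9 without CT12 array 1. With all arrays 1 was higher and 3 lower at an unadjusted limma p below 0.05 (12.3% and 15.1% of all genes), and without CT12 array 1, 2 were higher and 3 lower (7.36% and 11.9% of all genes). Drd4, the dopamine receptor of photoreceptors that lowers cyclic AMP, read 14.21, 14.37 and 14.00 at CT6 and 11.28, 14.85 and 15.38 at CT12. CT12 array 1 was lowest and CT12 arrays 2 and 3 were highest of the 6, and the difference was -0.36 with all arrays and 0.87 ± 0.20 without CT12 array 1 (adjusted p = 0.0902). Adra1b, an alpha-adrenergic receptor, read 9.19, 8.98 and 8.80 against 9.14, 9.79 and 10.08, a difference of 0.95 without CT12 array 1 (adjusted p = 0.0836). Drd1, the receptor of inner retinal neurons that raises cyclic AMP, read 11.13, 11.42 and 11.55 against 7.03, 10.34 and 10.77. Drd2, the autoreceptor of dopaminergic cells, read 10.37, 10.71 and 10.98 against 7.35, 9.55 and 10.08. Both had lower levels on every CT12 array, with differences of -1.99 and -1.69 with all arrays and -0.81 (adjusted p = 0.0879) and -0.87 (adjusted p = 0.140) without CT12 array 1. Adrb1, a beta-adrenergic receptor, read 10.49, 10.56 and 10.81 against 7.22, 10.12 and 10.02 (-1.50 with all arrays and -0.55 without CT12 array 1, adjusted p = 0.160 and 0.136).

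Of the lists of retinal neurons, those of rods, cones, ganglion cells and bipolar cells lay lower at CT12, and less so without CT12 array 1. In whole tissue fewer cells of a type and less RNA per cell cannot be told apart. As CT12 array 1 was set aside for its rod and lens transcripts, its values for these lists are a description. The median difference of 13 rod genes was -1.43 with all arrays and -0.36 without CT12 array 1 and that of 14 ganglion cell and axon genes -1.49 and -0.35. For 3 cone genes it was -1.15 and -0.34, and for 3 bipolar cell genes -0.996 and -0.41. For 11 amacrine and horizontal cell genes it was -0.45 with all arrays, and without CT12 array 1 it was -0.04, equal to that of all genes, with 5 of the 11 positive. Synaptic vesicle genes had -0.77 over 22 genes and -0.26 over 23. No gene of these lists passed the limma test on its brightest probe set; without CT12 array 1, 5 of 13 rod, 5 of 14 ganglion cell and 5 of 23 synaptic vesicle genes were lower at the unadjusted level, against 11.9% of all genes.

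Single neuronal genes show how much CT12 array 1 carries. Sag read 17.43, 17.53 and 17.57 at CT6 and 13.03, 16.19 and 17.14 at CT12. Grk1, the rhodopsin kinase, read 14.16, 14.28 and 14.91 against 9.31, 13.36 and 13.82. Nefl, the light neurofilament of ganglion cell axons, read 13.85, 13.93 and 13.88 against 8.71, 13.46 and 13.61. On these genes CT12 arrays 2 and 3 were also below all CT6 arrays, by far less. The differences were -2.06, -2.29 and -1.96 with all arrays and -0.82, -0.84 and -0.35 without CT12 array 1 (limma adjusted p = 0.192, 0.131 and 0.196 in the latter). Pde6d, a prenyl-binding partner of the rod phosphodiesterase, differed from these. It read 12.18, 12.03 and 12.23 at CT6 and 11.69, 11.70 and 11.61 at CT12, with CT12 array 1 between the others, and its difference of -0.49 ± 0.15 without CT12 array 1 was close to the -0.48 with it (adjusted p = 0.158 and 0.130).

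Of the vesicle genes, Sv2b, a glycoprotein of the vesicle membrane, read 15.53, 15.50 and 15.68 at CT6 and 13.03, 14.89 and 15.24 at CT12. Syt1, the calcium sensor of release, read 12.15, 12.38 and 12.26 against 8.54, 11.40 and 11.88. Their differences were -1.19 and -1.65 with all arrays and -0.50 and -0.62 without CT12 array 1 (limma adjusted p = 0.119 and 0.146 in the latter). The AMPA receptor subunits Gria2 and Gria3, partners of Nptx2 at synapses, differed by -1.49 and -1.20 with all arrays and by -0.72 and -0.48 without CT12 array 1 (adjusted p = 0.200 and 0.180 in the latter).

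Lens lists had higher mean levels on every CT12 array than on any CT6 array, though no gene of them passed. All 9 crystallin and all 7 lens fibre genes past the filter had a positive difference, with medians of 2.16 and 3.01 with all arrays and 2.00 and 2.48 without CT12 array 1. The limma test was passed by 0 of the 16 in either fit. At an unadjusted p below 0.05, 2 of 9 and 6 of 7 were higher with all arrays, against 12.3% of all genes. Without CT12 array 1, 2 of 9 and 2 of 7 were higher, against 7.36% of all genes. CT12 array 1 was set aside for its lens transcripts, so the lens values with all arrays are a description. The mean lens fibre level was 12.12, 12.27 and 9.50 at CT6 and 15.36, 14.59 and 12.41 at CT12. Crygd, a gamma crystallin, read 13.38, 14.36 and 10.53 against 17.14, 17.57 and 15.67, and Lim2, a fibre cell membrane protein, read 12.81, 13.01 and 10.17 against 16.89, 15.87 and 13.20. CT6 array 3 was lowest of the 6 in both genes. Hspb1, a small heat shock protein abundant in lens, read 12.25, 12.20 and 11.60 at CT6 and 16.70, 14.80 and 12.84 at CT12. Rpe65, the retinoid isomerase that marks pigment epithelium, read 10.53, 8.99 and 9.75 against 11.26, 11.51 and 9.91, with overlapping groups. With the mean crystallin level of each array as a covariate, 0 probe sets passed with all arrays (596 with an unadjusted p below 0.05) and 1, Nptx2, passed without CT12 array 1.

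**Figure D4:**
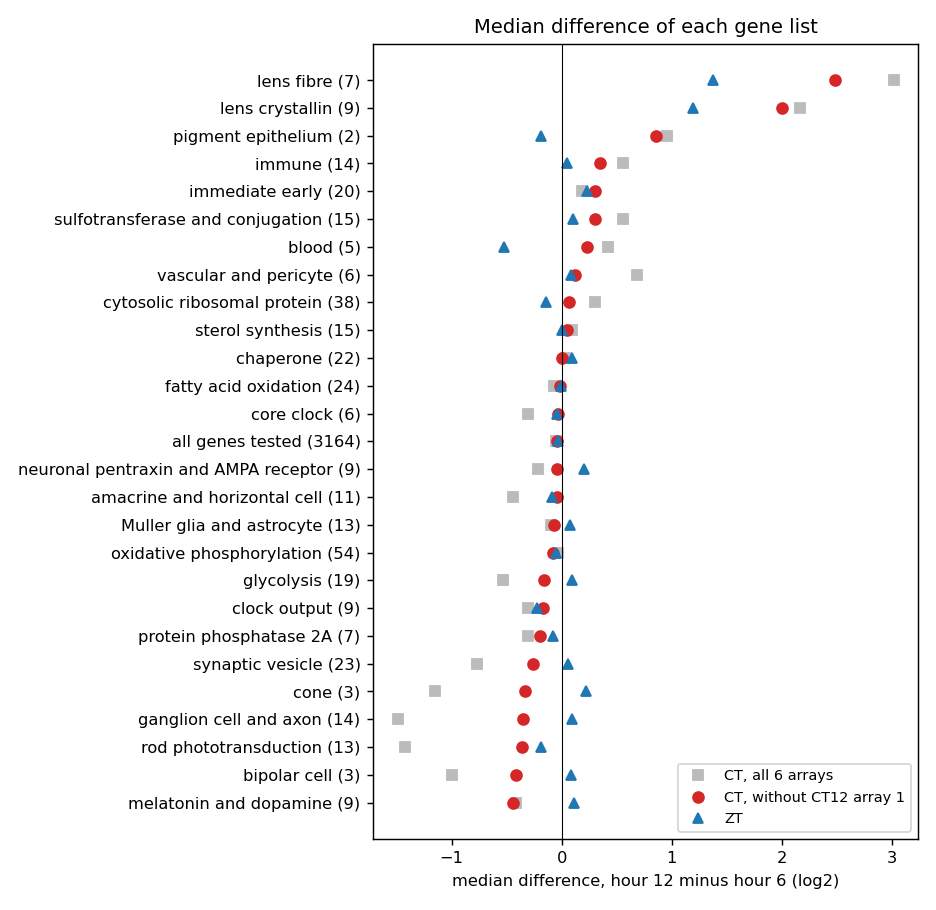
Median difference, hour 12 minus hour 6 (log2), of 26 gene lists and of all genes tested; the number after each name is the genes past the filter in the fit without CT12 array 1. Grey squares are CT with all 6 arrays, red circles CT without CT12 array 1 and blue triangles ZT. Retinal neuron lists lie left of 0 and nearer to it without the array, and the lens lists lie at 2.00 or more at CT in both fits.

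The fatty acid oxidation list as a whole did not fall with Cpt1a, though some of its genes were lower. Of 24 genes of that list past the filter without CT12 array 1, Cpt1a passed, and at the unadjusted level 1 was higher and 4 were lower, against 7.36% and 11.9% of all genes. The list median was -0.02, with 11 of the 24 differences positive. Acsl1 and Acads were lower by -0.41 and -0.69 without CT12 array 1 and did not pass (limma adjusted p = 0.235 and 0.250). Acsl6, a ligase that activates long-chain fatty acids, read 12.02, 12.37 and 12.65 at CT6 and 8.68, 11.26 and 11.89 at CT12 (-1.74 with all arrays and -0.77 without CT12 array 1, limma adjusted p = 0.147 and 0.137). Acaa2, the last thiolase of mitochondrial oxidation, went the other way, with 11.82, 11.75 and 11.43 against 13.29, 12.77 and 12.41. All CT12 arrays were above all CT6 arrays, and the difference of 0.92 ± 0.22 without CT12 array 1 had an adjusted p of 0.103. Crot, the peroxisomal carnitine octanoyltransferase, read 10.85, 10.87 and 11.31 against 10.05, 10.40 and 10.63 on its first probe set and 11.21, 11.28 and 11.37 against 10.42, 10.82 and 11.26 on its second, and neither passed.

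The regulatory B subunit Ppp2r2b of protein phosphatase 2A was the gene closest to Cpt1a. Its brighter probe set read 14.14, 14.15 and 14.61 at CT6 and 12.93, 13.30 and 13.07 at CT12, and its second 13.14, 13.20 and 13.87 against 11.96, 12.15 and 12.32. The groups were apart on both probe sets, also with CT12 array 1. The differences were -1.20 ± 0.18 (limma adjusted p = 0.0508) and -1.26 ± 0.21 (0.0796) with all arrays and -1.09 and -1.15 (0.0605 and 0.0797) without CT12 array 1, so neither passed. Over the 11 retina arrays without CT12 array 1 its Pearson correlation with Cpt1a was 0.959. Next came the kinase gene Cdk13 (0.954), Ppox of haem synthesis (0.927), Wrap73 (0.920) and the thioredoxin reductase Txnrd1 (0.918), all over arrays that share 1 normalization and the 4 groups. Of the other phosphatase 2A genes, Ppp2r5a read 13.13, 13.15 and 13.62 against 12.27, 12.72 and 12.91 (-0.48 without CT12 array 1, adjusted p = 0.176). The 7 genes of that list had a median of -0.31 and -0.20, and 0 passed.

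No gene of the glycolysis list passed, nor of the sterol list on its brightest probe set. Of 19 glycolysis genes the median was -0.53 with all arrays and -0.16 without CT12 array 1, against -0.05 and -0.04 for all genes. Slc16a3, the lactate exporter, read 10.96, 11.17 and 10.88 at CT6 and 11.91, 11.82 and 11.76 at CT12, with all CT12 arrays higher and nearly equal (0.83 ± 0.19 with all arrays, limma adjusted p = 0.105). Pfkfb3, which makes the activator of phosphofructokinase, read 8.99, 8.69 and 9.15 against 9.79, 9.45 and 9.73, while Pfkfb2 of the same family read 11.22, 10.70 and 10.84 against 8.21, 9.96 and 10.66. Neither passed (adjusted p = 0.182 and 0.196 without CT12 array 1). The 15 sterol synthesis genes had a median of 0.09 with all arrays and 0.05 without CT12 array 1. Fdps and Hsd17b7, neighbours of Fdft1 in the pathway, differed by -0.53 and -0.60 without CT12 array 1 (adjusted p = 0.198 and 0.174), and on both CT12 arrays 2 and 3 lay below all CT6 arrays.

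None of the conjugation genes passed the limma test on its brightest probe set. Sult1a1, a phenol sulfotransferase, read 10.29, 10.06 and 9.84 at CT6 and 12.34, 11.69 and 11.17 at CT12, with all CT12 arrays above all CT6 arrays. Its difference was 1.67 ± 0.28 with all arrays (limma adjusted p = 0.0754) and 1.37 ± 0.22 without CT12 array 1 (adjusted p = 0.0605). Ephx1, the microsomal epoxide hydrolase, read 10.49, 9.86 and 10.04 against 12.12, 10.86 and 11.01 (adjusted p = 0.119 with all arrays). Both were highest on CT12 array 1, as was the mean lens fibre level (15.36); its part in these values was not tested. The list of 16 conjugation genes had a median of 0.56 with all arrays and 0.30 over 15 genes without CT12 array 1.

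No chaperone gene passed the test. Hspa5, the chaperone BiP of the endoplasmic reticulum, read 12.92, 12.81 and 12.91 at CT6 and 13.09, 13.44 and 13.46 at CT12 on its brightest probe set. All CT12 arrays were above all CT6 arrays, and the difference of 0.56 ± 0.11 without CT12 array 1 had a limma adjusted p of 0.0797. The 22 chaperone genes had a median of 0.00 without CT12 array 1 and 12 positive differences; 3 were higher and 0 lower at the unadjusted level, against 7.36% and 11.9% of all genes. Cytosolic ribosomal protein genes had a median of 0.30 with all arrays, 30 of 38 positive, and 0.06 without CT12 array 1, 26 of 38 positive. None of these passed. Among immune genes, Lyz2, the macrophage lysozyme, read 10.21, 9.90 and 9.55 against 12.56, 11.04 and 10.71 (adjusted p = 0.117 with all arrays), and the median of the list was 0.55 over 15 genes and 0.34 over 14.

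The CT difference was set against the ZT difference on arrays that the CT groups do not share, though both come from 1 normalization and 1 estimate of the spread. At ZT, 15 probe sets passed with all arrays (0.286%) and 79 in the fit without CT12 array 1 (1.51%). Of the 79, 51 had the same sign at CT, 29 of them with an unadjusted p below 0.05, and 76 were smaller at CT. The 79 were chosen by their ZT difference, so the count of 76 cannot show a weaker effect at CT. Of the 7 probe sets that passed at CT, 5 had the same sign at ZT and 4 passed at both. The named genes of these 4 are Cpt1a, lower at hour 12 on both scales, Nr4a1, higher on both, and Nptx2, which changed in opposite directions. Over all probe sets the signs matched for 51.1%, and the correlation across probe sets was 0.221, which is a description since probe sets are not independent.

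Without CT12 array 1, 13 of the 20 immediate early genes past the filter had a positive difference at CT and 12 at ZT, with medians of 0.30 and 0.23. Egr1 read 10.95, 11.08 and 11.33 at ZT6 and 16.51, 17.14 and 16.73 at ZT12 on its brightest probe set, so the ZT12 arrays were above both CT12 arrays 2 and 3 and the ZT6 arrays were near CT6 array 3. Its difference was 5.55 at ZT and 2.75 at CT without CT12 array 1, and the test of their difference gave -2.80 ± 0.67 (limma adjusted p = 0.0976). For Nr4a1 that test gave -0.74 ± 0.29 (adjusted p = 0.232) and for the brightest Fos probe set -1.13 ± 0.22 (adjusted p = 0.0673). None of these passed, so a smaller effect at CT was not shown for any single gene. Drd4 and Rorb had nearly equal differences on both scales, 1.07 and 1.22 at ZT against 0.87 and 1.11 at CT, and the tests of the difference gave -0.20 ± 0.27 (adjusted p = 0.749) and -0.11 ± 0.35 (adjusted p = 0.898).

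**Figure D5:**
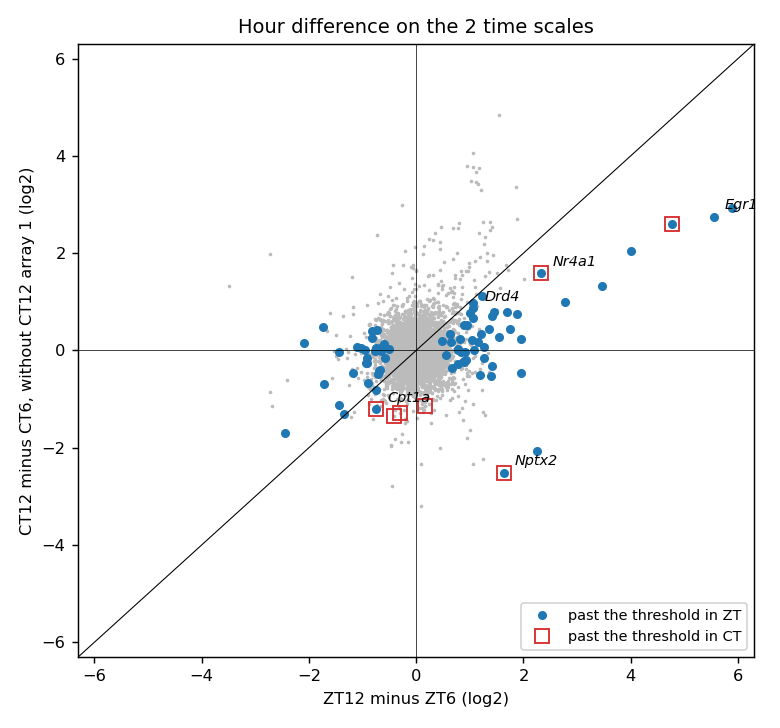
Difference of hour 12 minus hour 6 (log2) at ZT on the horizontal axis and at CT without CT12 array 1 on the vertical axis, 1 grey point per probe set, with the diagonal marking equal values. Blue points are the 79 probe sets that passed at ZT and red squares the 7 that passed at CT. Most blue points lie nearer to 0 vertically than horizontally, but they were chosen by their ZT difference. Nptx2 lies at 1.64 and -2.51.

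After Nptx2, Gstk1, Cdkn1a and Ahr had among the smallest p for the difference of the hour effects with all arrays. Genes ranked by this test are chosen for unlike differences, so opposite signs on the scales are no separate result. Fos, whose test without CT12 array 1 is given above, was higher at hour 12 on both scales. Gstk1, a mitochondrial and peroxisomal glutathione transferase, read 10.34, 11.08 and 10.09 at CT6 and 8.89, 8.27 and 8.62 at CT12, but 9.95, 8.41 and 8.64 at ZT6 and 10.93, 11.70 and 11.09 at ZT12. CT6 and ZT12 were high and CT12 was low, as for Nptx2. The cell cycle inhibitor Cdkn1a read 9.02, 9.88 and 9.94 at CT6, 8.46, 8.01 and 8.57 at CT12, 8.28, 8.57 and 9.07 at ZT6 and 9.86, 10.01 and 9.89 at ZT12. The aryl hydrocarbon receptor Ahr read 9.83, 10.98 and 11.20 at CT6 and 7.74, 8.09 and 8.60 at CT12 on its probe set with the smallest p, against 10.15, 10.48 and 10.64 at ZT6 and 11.24, 12.06 and 11.13 at ZT12. The differences of the hour effects were -4.15 ± 0.58, -2.54 ± 0.39 and -3.58 ± 0.54 with all arrays, and none passed (limma adjusted p = 0.0585, 0.0765 and 0.0765). A second Ahr probe set past the filter gave -2.13 with all arrays (adjusted p = 0.346) and -0.97 without CT12 array 1.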

How the data were processed

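Total RNA of rat retina and pineal gland was measured on 16 Affymetrix arrays. The deposited values are linear intensities, and the sources used here do not give the software, background correction or scaling with which the authors made them. With 2% trimmed at each end their mean is 2503 to 2506 on the retina arrays, while medians run from 671 to 858, so these arrays were quantile normalized. Log2 of the value plus 16 was fitted with limma 3.58.1 in R 4.3.3 (4 group means, eBayes, two-sided, Benjamini-Hochberg over 5244 probe sets, 0.05), after preparation in Python 3.11.15. Normalization, filter (40th percentile of the mean, 8.88 or 8.89) and fit were redone without CT12 array 1. Levels printed per array come from the 12-array normalization. Errors are standard errors. The fit was tested on simulated data. The number of arrays limits the precision.

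Symbols came from the platform annotation, and 6985 of 7006 matched RefSeq by gene ID. Members and the 26 lists were chosen with earlier results of these data known. Named genes were those past the threshold, the 8 higher and 8 lower with the smallest p, all of the immediate early, clock, output, melatonin and dopamine lists, up to 4 of each other list, 5 for the difference of the hour effects and 5 most like Cpt1a, all past the filter; not all are printed. Title numbers were not treated as pairs of CT6 and CT12 arrays, and whether they are pairs is not settled. Same-numbered CT6 and CT12 arrays correlate by 0.318, 0.0810 and 0.359 in their deviations. Over all 4 groups the median was 0.0125 for same numbers and -0.0286 for different numbers. Alternatives are listed in the closing section.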

Additional observations from a re-analysis of the deposited data

Results flagged for a closer look

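Nptx2 drew attention because the test of the difference between the hour effects at CT and at ZT passed on its relaxed probe set. The difference (CT minus ZT) was -3.95 with all arrays and -4.15 without CT12 array 1 (limma adjusted p = 0.00397 and 0.00261). Its other probe set gave a difference of -0.43 at CT and 0.21 at ZT without CT12 array 1.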

How the results depend on the processing

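Counts of probe sets past the threshold depended on the processing more than the differences did. For CT12 against CT6 with all arrays (2 past the threshold) the count was 5 with an offset of 1, 9 with arrays scaled to a common median, 9 with a filter at the 60th percentile, 1 without all arrays numbered 3, and 0 with no filter (1722 at an unadjusted limma p below 0.05), with the lens level as a covariate (596) or with the CT arrays alone (580); leaving out 1 array gave 0 to 1306. Without CT12 array 1 (7 past the threshold) it was 35 with the 60th percentile filter, 16 with a trended robust prior, 4 without all arrays numbered 3, 1 with the lens covariate, and 0 with no filter (1179), array weights (728) or the CT arrays alone (624); leaving out 1 more array gave 0 to 89. The difference of the hour effects (1 past the threshold in either fit) gave, with all arrays, 2 with the lens covariate and 3 without all arrays numbered 3, and 1 to 63 with 1 array left out. Without CT12 array 1 it gave 60 (6 higher and 54 lower) with a common median, 6 with the 60th percentile filter, 19 with the trended prior and 8 without all arrays numbered 3, and 1 to 19 with 1 more array left out. For ZT12 against ZT6 (15) the count was 1 to 79 with 1 array left out. Limma's array weights on all 12 arrays stopped before converging, with a weight of 48.4 on CT12 array 2 and 0.0439 on CT12 array 1. That fit, with 2524 past the threshold, was not used. The common median moved the median difference of all genes to -0.11 with all arrays and -0.15 without CT12 array 1. The causes of these shifts were not tested.

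With a replicate block made of the title numbers the counts were 3 for CT12 against CT6 with all arrays and 0 without CT12 array 1 (1057 unadjusted), and 2 and 3 for the difference of the hour effects. Under this block Cpt1a had an adjusted p of 0.0544 with all arrays and 0.0898 without CT12 array 1, and Nptx2 0.0443 and 0.0613. The best match of an array in another group had its own number for 5 of 12 arrays, so the numbers are not treated as pairs.

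Of 2579 genewise alternatives 2388 kept direction and side of the threshold, 106 passed newly, 64 were lost and 21 changed sign. With all arrays, Nr4a1 gave -0.70 without all arrays numbered 3 and -0.57 to 1.59 with 1 array left out, Rorb -1.12 to 1.11 and Drd4 -1.14 to 0.87. The other sign changes were in secondary probe sets near 0. One of Syngr1 gave, with all arrays, -0.033 as deposited, -0.042 with a common median, -0.0066 without all arrays numbered 3 and -0.087 to 0.18 with 1 array left out, and, without CT12 array 1, -0.048, -0.12 (common median, without arrays numbered 3) and -0.17 to 0.31. Another of Syngr1 gave -0.22 to 0.33 without CT12 array 1. That of Fdft1 gave -0.036 as deposited, -0.15 with a common median and -0.095 to 0.21 there. Of 156 alternatives for the medians of lists, 149 moved by less than the larger standard deviation between arrays of CT6 or CT12. That spread includes CT12 array 1 in both fits. For rod genes it was 1.64, against a median difference of -0.36 without CT12 array 1, so the count cannot show that such medians are stable.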

Other observations

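Among genes outside the lists, several had arrays of the 2 groups fully apart and adjusted p just above the threshold. Scfd1, a regulator of membrane fusion between endoplasmic reticulum and Golgi, read 11.61, 11.30 and 11.39 at CT6 and 10.52, 10.28 and 10.69 at CT12 (-0.94 ± 0.17, limma adjusted p = 0.0796). Prune2 read 11.67, 11.95 and 11.66 against 11.01, 11.05 and 11.03 (-0.73 ± 0.14, adjusted p = 0.0949). The catalytic subunit of protein kinase A Prkacb was lower on both of its probe sets, by 0.72 and 1.15 (adjusted p = 0.0949 and 0.0953). On Scfd1 and Prune2 CT12 array 1 lay with or near the other CT12 arrays. For the 2 Prkacb probe sets the differences without CT12 array 1 were -0.68 and -0.88.

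Slc16a6, a monocarboxylate transporter, read 11.79, 12.05 and 11.34 against 10.42, 10.65 and 10.76 (adjusted p = 0.0730). In the other direction, the peptide hormone Edn3 read 9.23, 7.45 and 7.45 against 13.45, 11.73 and 10.32 and the platelet factor Pf4 read 8.56, 7.49 and 8.28 against 10.23, 10.18 and 9.27 (adjusted p = 0.0949 for both). In both, CT12 array 1 was the highest of the 6 arrays. Except for Edn3 on CT6 array 1, their CT6 levels lay under the filter limit of 8.88 and their CT12 levels above it. For these genes passing the filter is therefore not separate from being high at CT12. Ak4, a mitochondrial adenylate kinase, read 10.36, 10.44 and 10.17 against 10.08, 11.13 and 11.46 and did not pass without CT12 array 1 (0.97 ± 0.19, adjusted p = 0.0797).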
